A study of Mus musculus with 4 samples.

Results

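At the Adgrb2 and Col16a1 locus on mouse chromosome 4, called peaks of the repressive histone mark H3K27me3 covered more DNA in fetal than in adult blood progenitors. It was followed here as all peaks that overlap the window from 129.60 to 129.82 Mb of build mm9. The window holds 43 of the 51871 peaks of the study, 13 of the 20024 peaks of adult bone marrow and 30 of the 31847 peaks of fetal liver. It was chosen by the difference in covered length between the 2 peak lists, so the coverage values below describe that difference and do not test it. Adgrb2, formerly Bai2, lies at about 129.66 to 129.70 Mb, and Col16a1 at about 129.72 to 129.78 Mb. These positions are known only to about 10 kb, because no gene table on mm9 was used here.

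The study profiled H3K27me3 by native chromatin immunoprecipitation and sequencing, with micrococcal nuclease in place of sonication. The adult group was lineage-negative bone marrow from 8-week-old C57BL/6 mice, and the fetal group was lineage-negative liver at embryonic day 14.5, also labelled C57BL/6. Lineage-negative cells are those left after cells with surface markers of mature blood types are removed, so each group is a mixture of stem and progenitor cells. Both groups carried a lentivirus with NOTCH1ΔE (N1dE), a shortened and active NOTCH1, were kept 3 days in cytokine medium and were sorted for GFP. No group without N1dE was among the samples, so the marrow and the liver differ in tissue and age on a shared NOTCH1 background. Each group has 1 peak list, made from merged libraries against input, and the number of animals or libraries behind it was not stated in the sources used here. There is therefore no spread between replicates, no test between the groups was made, and the read depth is unknown. A mark on fewer cells and a weaker mark per cell cannot be told apart in such bulk data.

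H3K27me3 is written by Polycomb repressive complex 2. The complex is drawn to unmethylated CpG-rich promoters of silent genes and can spread the mark over whole genes and their surroundings, which gives wide domains at developmental and tissue-restricted genes. Adgrb2 encodes an adhesion G protein-coupled receptor of the brain-specific angiogenesis inhibitor family, expressed mostly in the nervous system. Col16a1 encodes the alpha chain of type XVI collagen, a fibril-associated collagen of connective tissue and smooth muscle. On GRCm38 the protein-coding gene before Adgrb2 is Spocd1, a germ-line factor of piRNA-directed DNA methylation. The protein-coding genes after Col16a1 are Pef1, a calcium-binding protein, and Hcrtr1, an orexin receptor. They are given by order only and were not placed on the peaks.

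The promoters of the 2 genes are shown because CpG-rich sequence is where Polycomb complexes are known to start. Each run is 300 bases of RefSeq sequence, 250 before and 50 after the annotated start, on the + strand of GRCm38.p6, with every CG dinucleotide in capitals. These coordinates belong to GRCm38.p6 and cannot be read against the mm9 positions of the peaks. The Adgrb2 run is chr4:129984620-129984919 and the Col16a1 run is chr4:130047590-130047889.
Adgrb2: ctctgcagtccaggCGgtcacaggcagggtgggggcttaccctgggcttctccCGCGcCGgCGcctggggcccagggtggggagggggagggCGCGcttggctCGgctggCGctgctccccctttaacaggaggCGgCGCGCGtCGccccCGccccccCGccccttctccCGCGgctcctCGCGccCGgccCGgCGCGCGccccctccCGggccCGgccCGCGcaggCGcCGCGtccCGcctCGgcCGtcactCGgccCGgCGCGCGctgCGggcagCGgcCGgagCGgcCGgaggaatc
Col16a1: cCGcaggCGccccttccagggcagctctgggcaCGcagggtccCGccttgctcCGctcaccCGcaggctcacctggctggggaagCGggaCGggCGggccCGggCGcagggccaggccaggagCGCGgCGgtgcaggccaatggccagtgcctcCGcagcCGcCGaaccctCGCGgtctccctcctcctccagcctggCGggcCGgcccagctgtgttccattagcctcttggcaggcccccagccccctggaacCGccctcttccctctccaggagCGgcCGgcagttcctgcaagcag

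The Adgrb2 promoter is among the most CpG-dense of the RefSeq table. It holds 45 CG dinucleotides, 14 in its first 150 bases and 31 in its last 150, which is more than in 98.1% of the 32851 promoter windows there. Its G + C content is 81.7%, above that of 99.4% of the windows, and its observed-over-expected CpG ratio is 0.90. The Col16a1 promoter holds 24 CG dinucleotides, 14 in the first 150 bases and 10 in the last 150, which is more than in 80.0% of the windows. Its G + C content of 74.3% is above that of 95.6% of windows, and its CpG ratio is 0.59. The median window has 7 CG dinucleotides, a G + C content of 52.7% and a ratio of 0.38. With a usual rule for CpG-rich sequence, a G + C content of at least 50% and a ratio of at least 0.6, the Adgrb2 promoter is CpG-rich and the Col16a1 promoter falls just short. This rule is met by 33.5% of all windows. CG reads the same on both strands, and a count of it is a description of the sequence, not of binding.

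**Figure D1:**
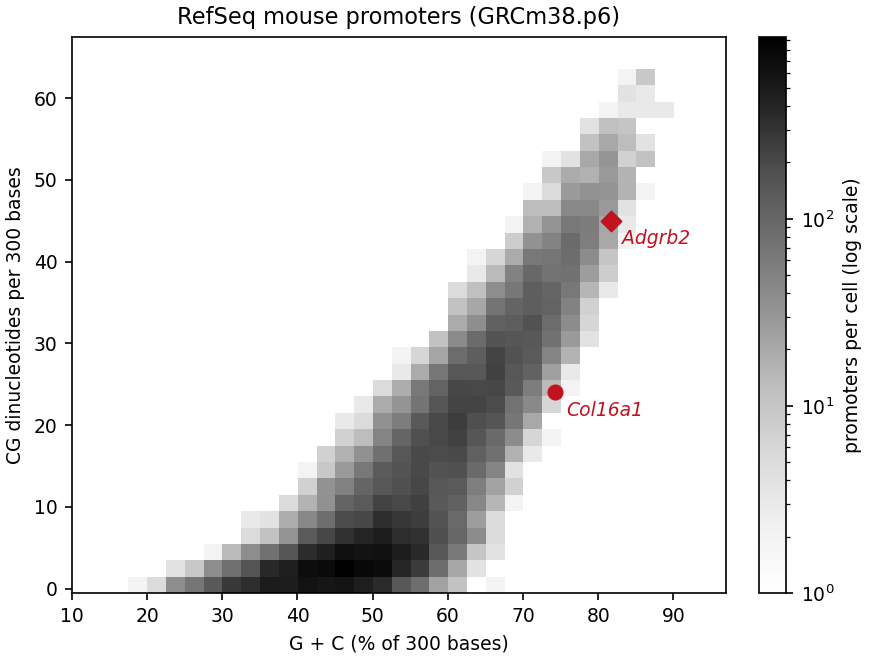
The plot sets the G + C content of 300-base RefSeq promoter windows (x axis, %) against their number of CG dinucleotides (y axis), with the grey scale giving the number of promoters per cell on a log scale. The diamond is Adgrb2, with 45 CG dinucleotides at 81.7% G + C, and the circle is Col16a1, with 24 at 74.3%.

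Across the window, H3K27me3 peaks covered far less in adult bone marrow than in fetal liver. Coverage by the 13 bone marrow peaks was 28.1 kb, or 12.8% of the 220 kb, and the 30 fetal liver peaks covered 98.8 kb, or 44.9%. The ratio of bone marrow to fetal liver coverage was 0.284, against 0.664 over the whole lists, so the deficit was larger here than the general one. Nearly all the bone marrow coverage lay inside the fetal liver coverage. The bases in both lists came to 26.4 kb, which is 93.8% of what bone marrow and 26.7% of what fetal liver peaks covered. These shares of bases were not computed over the whole lists, so they only describe a window chosen for its high fetal liver coverage. Bone marrow alone covered 1.73 kb and fetal liver alone 72.4 kb.

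The bone marrow peaks were a few scattered pieces, whereas the fetal liver peaks were wider and closer together. Peak width had a median of 1.06 kb in bone marrow, against 2.12 kb in fetal liver. Over the whole lists the medians were 0.957 kb in bone marrow, against 0.945 kb in fetal liver. Peaks of at least 5 kb numbered 2 in bone marrow (15.4%) and 5 in fetal liver (16.7%), a like share of the peaks in the window, against 9.54% of the whole bone marrow list and 8.02% of the whole fetal liver list. The widest bone marrow peak was 9.83 kb long, from 129657100 to 129666925, and the widest fetal liver peak was 19.8 kb long, from 129647960 to 129667748. The fetal liver peak contained the bone marrow peak whole. The gaps between neighbouring peaks had a median of 5.13 kb in bone marrow, against 1.97 kb in fetal liver. Of the 12 gaps in bone marrow 8 were longer than 3 kb, and of the 29 gaps in fetal liver 7 were.

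**Figure D2:**
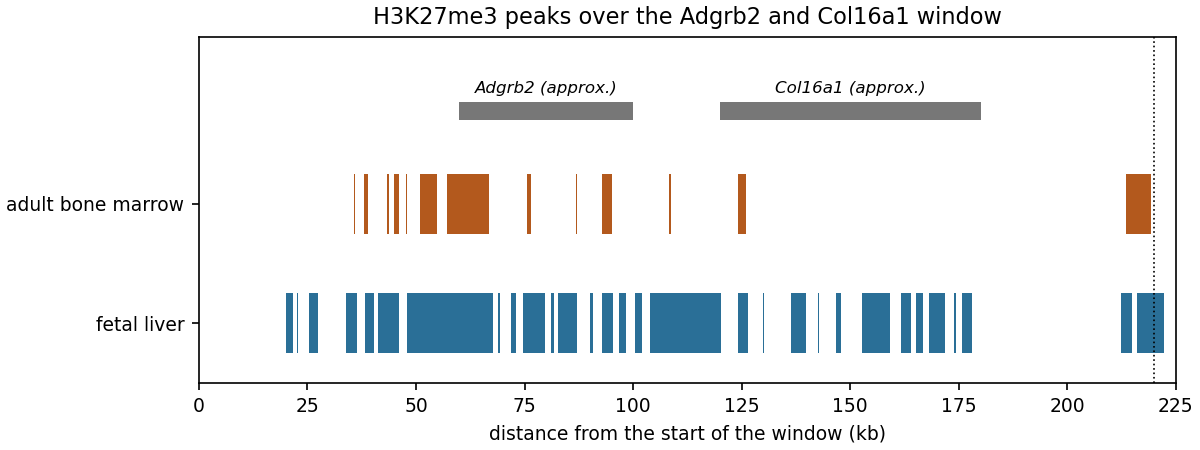
The map shows every peak of adult bone marrow (upper row) and fetal liver (lower row) as a box over its own length, with distance from the start of the window in kb on the x axis, the approximate gene spans as grey bars and the end of the window as a dotted line. Bone marrow peaks end at 126.0 kb and resume near the right end, while fetal liver peaks go on over most of Col16a1.

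The domain had different edges in the 2 lists. Near the right end of the approximate Col16a1 span began 34.3 kb, from 129778072 to 129812380, with no peak of either list. This stretch closed the domain on its right. To the left of that stretch the bone marrow peaks ran from 129635657 to 129726025, a span of 90.37 kb, and the fetal liver peaks from 129619998 to 129778071, a span of 158.1 kb. Fetal liver thus reached 15.7 kb further left and 52.0 kb further right. Within its own span, each list was also filled to a different degree: the 12 bone marrow peaks covered 24.8% of theirs, and the 28 fetal liver peaks covered 58.3% of theirs. Over the fetal liver span, bone marrow coverage was 14.2%. On the left side the window began in DNA without peaks. The last peak before the domain ended 186.0 kb before the first peak in bone marrow and 449.0 kb before it in fetal liver. On the right side the window edge at 129.82 Mb cut through marked DNA. The last fetal liver peak reached 129822147, and the next ones began 0.862 kb further on in fetal liver and 10.5 kb beyond the last peak in bone marrow.

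In bins of 5 kb, bone marrow had the lower coverage nearly everywhere that either list had a peak. Of the 44 bins, 35 held peak bases, and 32 of these (91.4%) were covered less in bone marrow than in fetal liver. Over all bins of the genome with a peak in either list that share was 70.5%. The mark was present in both lists in 16 bins. It was in fetal liver only in 19 (54.3% of those with a peak, against 41.4% over the genome). It was in bone marrow only in 0, against 11.6% over the genome. These shares only describe a window chosen for its high fetal liver coverage. Bone marrow exceeded fetal liver in 2 bins. They were the bin from 120.0 kb into the window, with 887 bp in bone marrow, against 881 bp in fetal liver, and the last one, from 215.0 kb, with 4248 bp in bone marrow, against 4045 bp in fetal liver. A bin filled over at least 4 kb occurred 2 times in bone marrow and 10 times in fetal liver. The 1 bin filled end to end in bone marrow, from 60 kb, was also filled end to end in fetal liver. It lies near the left end of the approximate Adgrb2 span.

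**Figure D3:**
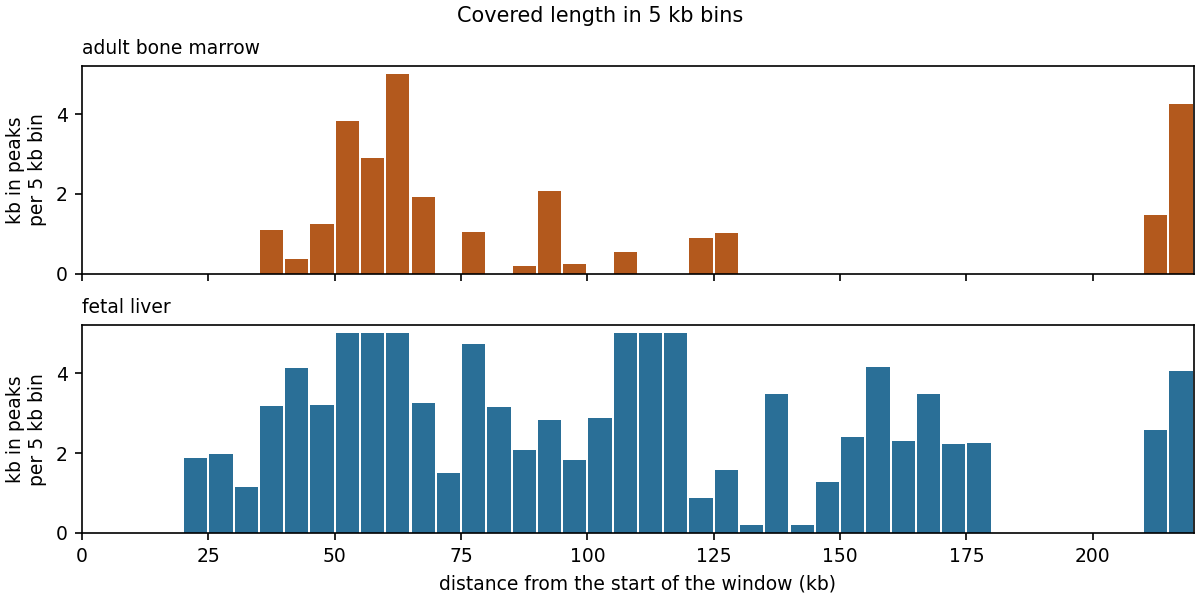
Bars give the length in peaks per 5 kb bin (y axis, kb, at most 5) along the window (x axis, kb from its start), for adult bone marrow above and fetal liver below. Both lists are full in the bin from 60 kb, and from 130.0 to 180.0 kb only fetal liver has bars.

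Left of Adgrb2 and around the left end of its approximate span, both populations carried the mark, mostly as short peaks in bone marrow and as wider ones in fetal liver. From 129.60 to 129.66 Mb peaks covered 9.43 kb in bone marrow, against 25.5 kb in fetal liver. The first bone marrow peaks, of 0.238 kb, 0.869 kb, 0.307 kb and 1.06 kb, each touched a fetal liver peak, and those fetal liver peaks were 2.68 kb, 1.99 kb and 4.96 kb long. A bone marrow peak touches a fetal liver peak more easily in a window chosen for high fetal liver coverage. The share that follows is therefore a description. Only 1 of the 13 bone marrow peaks touched no fetal liver peak (7.69%, against 32.0% over the whole list). It was 235 bp long, from 129647700 to 129647934, with a fold enrichment over input of 1.06, and it ended just short of the widest fetal liver peak. That fetal liver peak took in 2 bone marrow peaks, of 3.82 kb and 9.83 kb, and the gap of 2.34 kb between them. Fold enrichment in these 2 bone marrow peaks was 2.07 and 2.01, and in the fetal liver peak it was 1.79. The fold is the authors' value, a mean over the peak, and is used here to describe peaks within a list.

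Fetal liver also had 3 peaks before the first bone marrow peak of the domain. They lay between 129619998 and 129627373 and covered 3.85 kb. The last of them, of 1.96 kb, had the highest fold enrichment of the fetal liver peaks in the window, at 2.57, and the highest −log10 q, at 2.38. That value is the false discovery rate from the peak caller on a negative log scale, as deposited for the peak. It is used here to order and filter peaks, and is not read as an error rate of the whole peak. The fetal liver peak that followed, from 129633844, began 1813 bp before the first bone marrow peak.

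Over the approximate Adgrb2 span, bone marrow had a wide peak at the left end and short ones further right, and fetal liver had peaks along its length. From 129.66 to 129.70 Mb, peaks covered 10.5 kb (26.2%) in bone marrow, against 24.4 kb (60.9%) in fetal liver, a ratio of 0.431. In bone marrow most of this belonged to the wide peak at the start of the span, and 3 further peaks of 1.06 kb, 0.203 kb and 2.30 kb followed. The peak of 0.203 kb, from 129686944 to 129687146, had the highest −log10 q of the bone marrow peaks in the window, at 2.29, with a fold enrichment of 2.39. It overlapped the end of a fetal liver peak of 4.46 kb by 124 bp and ran 79 bp past it. One site in the Adgrb2 span had almost the same peak in both lists. The bone marrow peak from 129692932 to 129695235 and the fetal liver peak from 129692854 to 129695256 differed by 78 bp at their starts and 21 bp at their ends. Its fold enrichment was 1.95 in bone marrow and 1.61 in fetal liver.

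Between the approximate gene spans the contrast was the steepest of the 5 segments. From 129.70 to 129.72 Mb bone marrow peaks covered 0.534 kb, or 2.67%, and fetal liver peaks covered 17.9 kb, or 89.4%. The bone marrow coverage was a single peak from 129708250 to 129708783, with a fold enrichment of 2.42, the highest of the bone marrow peaks in the window. It lay inside a fetal liver peak of 16.2 kb, from 129703905 to 129720137, whose fold enrichment was 2.07 and whose −log10 q was 1.53. A fetal liver peak of 1.78 kb just before it reached 2.47 in fold enrichment, with a −log10 q of 2.03. The stretch up to the approximate Col16a1 span was thus nearly filled in fetal liver and held 1 short peak in bone marrow. Whether all of it is intergenic cannot be said at the precision of the gene positions.

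Over Col16a1, bone marrow kept 1 peak near the start of the span, whereas fetal liver carried peaks along its length. From 129.72 to 129.78 Mb, coverage was 1.91 kb (3.19%) in bone marrow, against 24.4 kb (40.7%) in fetal liver, a ratio of 0.0783. The bone marrow peak ran from 129724114 to 129726025 and its fetal liver counterpart from 129724257 to 129726528. They shared 1769 bp, and their starts differed by 143 bp, with bone marrow the further left. Fold enrichment was 2.01 in the bone marrow and 1.72 in the fetal liver peak, and −log10 q was 1.53 and 1.07 in the same peaks. Whether this shared peak lies on the Col16a1 promoter cannot be said at the precision of the gene position.

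To the right of that shared peak, bone marrow had no peak for 87.5 kb, from 129726026 to 129813527. In the same stretch lay 10 whole fetal liver peaks, between 129729961 and 129778071, which covered 22.0 kb of the 48.1 kb they span. The nearest bone marrow peak was 3.94 kb away on the left and 35.5 kb on the right. These fetal liver peaks were modest. Their fold enrichment ran from 1.18 to 2.11 with a median of 1.80, and their −log10 q from 0.41 to 1.22 with a median of 0.88. The widest, of 6.55 kb from 129752608, had a fold enrichment of 1.95. The longest run of bins marked in fetal liver only lay here, with 10 neighbouring bins that held between 188 and 4161 bp of fetal liver peaks each.

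**Figure D4:**
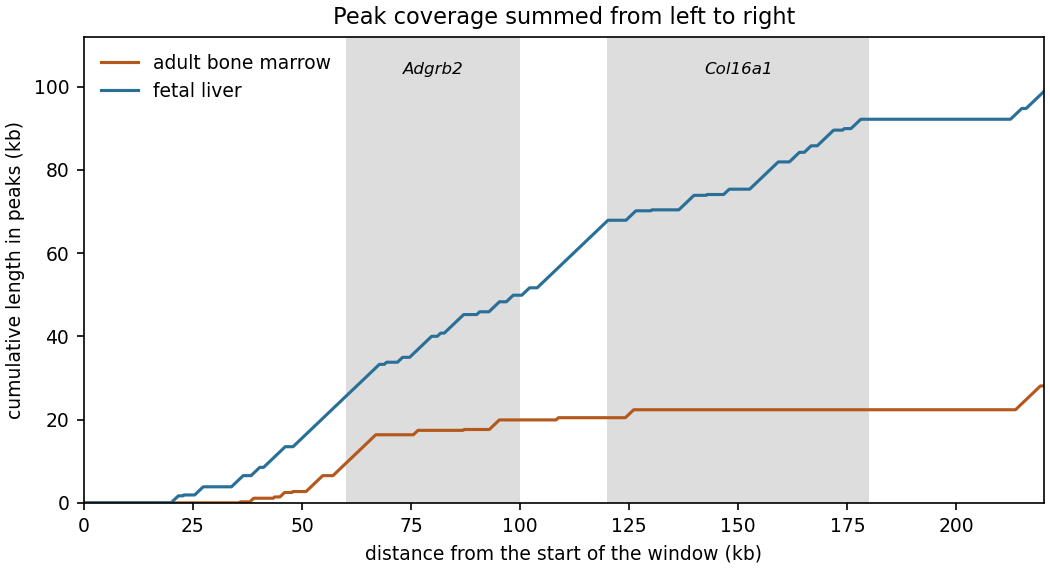
The lines give the length in peaks summed from the left end of the window (y axis, kb) against distance from its start (x axis, kb), for adult bone marrow and fetal liver, with the approximate gene spans shaded. The bone marrow line is flat from 126.0 to 213.5 kb and ends at 28.1 kb, and the fetal liver line climbs over both genes and ends at 98.8 kb.

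Right of the gap shared by both lists, coverage in the 2 lists was closer. From 129.78 to 129.82 Mb, peaks covered 5.72 kb in bone marrow, against 6.63 kb in fetal liver, a ratio of 0.863. The bone marrow coverage was 1 peak, from 129813528 to 129819248, with a fold enrichment of 1.99. It overlapped 2 fetal liver peaks, of 2.59 kb and 6.19 kb, with fold enrichments of 1.61 and 1.89. The difference of -70.7 kb (bone marrow minus fetal liver) over the window was therefore made almost wholly to the left of this gap. The approximate Col16a1 span held 31.8% of it, the stretch between the approximate gene spans 24.5% and the stretch left of Adgrb2 22.8%. The Adgrb2 span held 19.6% and the right end 1.29%.

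The bone marrow peaks of the window were of ordinary width for their list and the fetal liver peaks were wide for theirs, and neither had a high median fold. Median fold enrichment was 2.01 in bone marrow and 1.80 in fetal liver, against 2.12 and 1.93 over the whole lists. Within its own list, the median peak stood at the 38.3th percentile of fold enrichment in bone marrow and at the 34.5th in fetal liver. By width the median peak stood at the 53.9th percentile in bone marrow and at the 75.9th in fetal liver. Median −log10 q was 1.20 in bone marrow and 1.06 in fetal liver. Over the whole lists these medians were 1.38 in bone marrow and 1.09 in fetal liver, and the median peak of the window stood at the 39.8th percentile of −log10 q in bone marrow and at the 47.8th in fetal liver. A −log10 q of 2 was reached by 1 of the 13 bone marrow peaks (7.69%, against 26.5% of that list) and by 2 of the 30 fetal liver peaks (6.67%, against 15.2% of that list). By the ratio, the excess of fetal liver was smaller with a limit on fold and a little smaller with a −log10 q of at least 1. With peaks of a fold enrichment of at least 2, of which each list has 7 in the window, coverage was 17.6 kb in bone marrow, against 27.6 kb in fetal liver. The ratio was then 0.638, against 1.14 over the whole lists with the same limit. The widest bone marrow peak, with a fold of 2.01, just passed this limit. The widest fetal liver peak, which contains it, had a fold of 1.79 and did not pass. With a −log10 q of at least 1 the ratio was 0.337, against 0.831 over the whole lists. A −log10 q of at least 2 moved the ratio the other way, to 0.0542, against 1.44 over the whole lists. It left 1 bone marrow peak with 0.203 kb and 2 fetal liver peaks with 3.74 kb in the window. When only the 20024 fetal liver peaks of highest −log10 p were kept, 17 of the 30 in the window stayed (56.7%, against 62.9% of the list), and the ratio was 0.369 against 0.918 over the whole lists.

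Counted by peaks rather than bases, the fetal liver peaks of the window were close to their whole list. Of the 30 fetal liver peaks, 19 (63.3%) touched no bone marrow peak, against 60.2% of all fetal liver peaks, so this share is near the background. The 11 fetal liver peaks that did touch one were the wider ones, with a median of 4462 bp and 68.6 kb in sum. The 19 others had a median of 1564 bp and came to 32.3 kb. An overlap was counted from 1 bp, so a wider peak touches another more easily. These widths were not set against the whole list.

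When peaks from both lists were joined across gaps of up to 3 kb, the window held 8 regions, 5 of them in fetal liver only, 3 in both and 0 in bone marrow only. Over the genome, 13.0% of the 22283 such regions were bone marrow only and 45.4% were fetal liver only. As the window was chosen for its high fetal liver coverage, its own counts only describe it. The main shared region, from 129633844 to 129720137, takes in the stretch left of Adgrb2, Adgrb2 and the stretch up to Col16a1. Bone marrow peaks covered 20.5 kb of it (23.7%) and fetal liver peaks 64.1 kb (74.2%). Among the 9277 shared regions of the genome it had the second-largest deficit of bone marrow in bases. The fetal liver region from 129752608 to 129778071, over the later part of Col16a1, held 16.8 kb of fetal liver peaks, the most of the 10118 regions without a bone marrow peak. These places in the order are a description, since the locus was chosen for them. They hold for joining within 3 kb and were not computed at other distances. Joining within 10 kb left 0 regions in fetal liver only in the window.

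Set against other stretches of the same length, the window stood at the far end of the difference. The autosomes were divided end to end into windows of 220 kb, and the 5708 with a peak and no base in common with this one had a median difference of -1.47 kb (bone marrow minus fetal liver). None of them reached the -70.7 kb of the Adgrb2 and Col16a1 window. The nearest, on chromosome 11 from 117260001 to 117480000, had 35.1 kb in bone marrow, against 105.0 kb in fetal liver, a difference of -70.4 kb. A window set around a known domain has an advantage over windows set end to end, so this is a description. In the ratio the locus was less extreme. Among the 896 windows with at least 20 kb in fetal liver peaks the median ratio was 0.637, and 68 had a ratio as low as 0.284 or lower. Among the 20004 intervals between neighbouring bone marrow peaks, the one over Col16a1 was 1 of 10 that held at least 23.6 kb of fetal liver peaks. Among intervals of up to 100 kb it was 1 of 2.

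**Figure D5:**
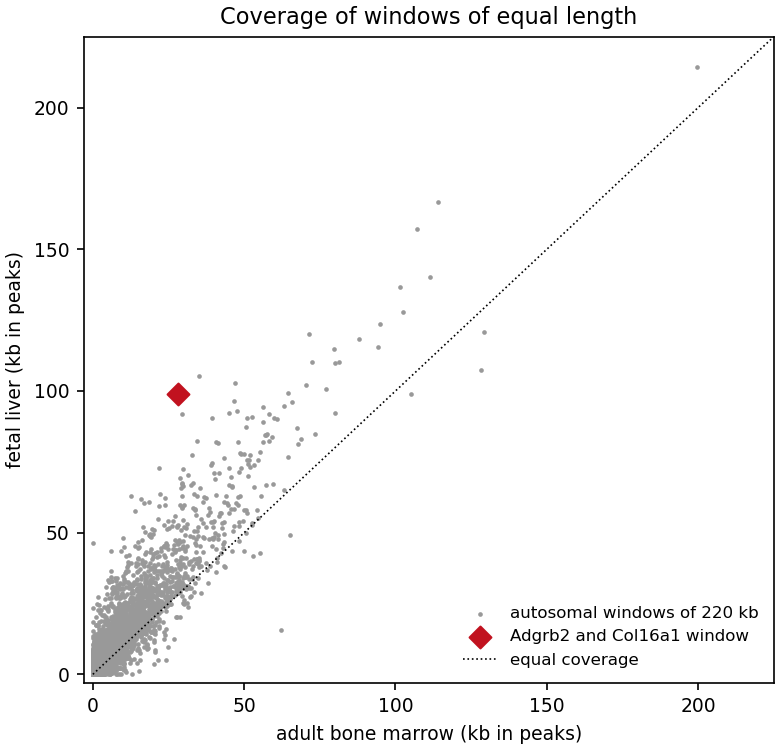
Each grey point is an autosomal window of 220 kb, with the length in adult bone marrow peaks on the x axis and in fetal liver peaks on the y axis (both in kb), and the dotted line marks equal coverage. The diamond is the Adgrb2 and Col16a1 window, at 28.1 kb in bone marrow, against 98.8 kb in fetal liver.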

How the data were processed

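H3K27me3 peaks of adult bone marrow and fetal liver progenitors were taken as deposited, 1 list per group, with groups from the sample titles. The 2 inputs, controls of the peak calls, were not used here. The submitters' processing notes name MACS2 2.1.0, Picard and BWA 0.5.7, and build mm9. Neither settings nor read numbers were found in these notes. By the names of the peaks, they were called on merged libraries against input. Peaks grow in number and width with depth, so coverage is no measure of the amount of the mark. The deposited fold enrichment is the authors' ratio over input, averaged over a peak. For each peak the authors also deposited −log10 p and −log10 q, which served here to order and filter peaks. The deposited score column was not used.

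Coordinates count from 1. Covered bases, gaps, 5 kb bins and regions joined within 3 kb came from Python 3.11.15 with pandas 2.3.3 and numpy 2.4.6. The interval code was tested on simulated intervals against base-by-base counts. Figures were drawn with matplotlib 3.10.9. An overlap was counted from 1 bp. The window, the gene spans and the members were chosen with earlier results of these data known. The named items are the 2 genes, all peaks of the window, and the widest and highest peaks of each list. Alternatives were limits on −log10 q, fold and width, a shortened fetal liver list, filled gaps, other windows, bins and joining distances. Promoter sequence came from RefSeq, and both genes were matched by symbol. A comparison with the promoters of 11 related receptor and collagen genes was void, since 5 of them were matched.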

Additional observations from a re-analysis of the deposited data

How the results depend on the processing

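No paired analysis was possible because each group has a single list of peaks. Of 26 alternative values 17 stayed within 1.5 times of the reported value and 9 did not. A turn of direction was looked for in the coverage ratio only, and 0 of its values turned. The other values are counts or lengths, for which no turn was defined. A −log10 q of at least 2 left 1 bone marrow and 2 fetal liver peaks, a coverage ratio (bone marrow over fetal liver) of 0.0542, 2 bins covered less in bone marrow, and 1.78 kb of fetal liver peaks in the longest stretch without a bone marrow peak, against 23.6 kb as reported. These values rest on 3 peaks, and the ratio over the whole lists with this limit was 1.44. A fold enrichment of at least 2 gave 0.638, 10 bins and 4.76 kb. Bins of 10 kb gave 18 bins covered less in bone marrow, of 22 in all with or without a peak. Counted in that way, bins of 5 kb gave 32 of 44, and the lower count follows from the smaller number of bins. Joining within 1 kb gave 27 regions and within 10 kb gave 2, of which 18 and 0 were in fetal liver only. The ratio was 0.254 to 0.381 under the other alternatives, which were a −log10 q of at least 1, both shortened fetal liver lists, peaks of at least 1 kb, filled gaps, a window widened by 100 kb on each side, and the gene spans alone. Relative to the ratio of the whole lists under the same setting, the window stood at 0.428 as reported, 0.559 with the limit on fold and 0.381 to 0.407 with the other limits on the lists, with the −log10 q of at least 2 left aside. Depth, which is unknown, and the lack of replicates limit every comparison of coverage.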

Other observations

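The DNA on the 2 sides of the window differed in the same way in both lists. The 100 kb before the window held 0 peaks in bone marrow and 0 in fetal liver. The 100 kb after it held 10 bone marrow peaks over 13.5 kb and 18 fetal liver peaks over 28.6 kb, a ratio of 0.474, and 78.3% of the bone marrow coverage there lay in fetal liver peaks. Stretches of the opposite kind also occurred. Of the 31827 intervals between neighbouring fetal liver peaks, 2 held at least 23.6 kb of bone marrow peaks. As much fetal liver was held by 10 of the 20004 intervals between bone marrow peaks. The lists differ in size, so these counts are not a like comparison. Bone marrow peaks cover 40.4 Mb in all, against 60.8 Mb in fetal liver.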
